A study of Mus musculus with 13 samples.

Results

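Epididymal fat of CD1d knockout mice was compared with epididymal fat of wild type mice after both had received α-galactosylceramide (αGalCer). The 3 knockout arrays and 4 wild type arrays were chosen by their sample titles, and they are 7 of the 13 arrays of the series. All animals were males on the C57Bl/6J background, aged 6.5 weeks at the end of the experiment. The knockout carried the allele of the strain B6.129S6-Cd1d1/Cd1d2tm1spb/J, whose name lists both mouse CD1d genes. Mice of both genotypes began a high-fat diet on day 0 and were killed on day 4. αGalCer was given into the peritoneum on days 0 and 2 at 100 ng per g of body weight. The remaining 6 arrays, 3 of each genotype, came from mice on the same diet that received only the vehicle, pyridine, on the same days. They served here to show which genotype differences were also present without αGalCer. The labels do not say how animals or RNA were divided between arrays, so each p-value rests on the spread among these arrays, part of which may be technical.

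CD1d is a surface protein related to MHC class I that presents lipids rather than peptides. Natural killer T (NKT) cells carry a T cell receptor that recognises such lipids, and they are selected on CD1d in the thymus, so mice without CD1d lack them. αGalCer is a glycolipid that, bound to CD1d, makes NKT cells release interferon-gamma and IL-4 within hours, and fat is one of the tissues where these cells are common. The question of the comparison is which transcripts of fat differ after αGalCer between mice that have and mice that lack its presenting molecule and the cells that respond to it.

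Values are log2 RMA values, so a difference of 1 is 2-fold, and every difference below is knockout minus wild type after αGalCer unless another is named. A gene was called at a Benjamini-Hochberg adjusted p under 0.05 in 1 limma model of all 13 arrays, and ± after a difference is its standard error. Any knockout array correlated with any wild type array at 0.947 to 0.966 after αGalCer, against 0.988 to 0.993 within the wild type group and 0.990 to 0.994 within the knockout group. The knockout arrays after αGalCer correlated with the 6 vehicle arrays at 0.974 to 0.993. The tissue matched its label, since the mean of 6 adipocyte markers lay at 9.73 to 10.67 in wild type and 11.97 to 11.98 in knockout, while 4 markers of epididymis and testis averaged 4.18 to 4.57. Skeletal muscle markers averaged 10.09 on knockout replicate 3 and 5.80 to 6.72 on the other 6 arrays. Without that array 3643 genes were called higher and 3144 lower in knockout, 1370 and 1221 of them by at least 2-fold.

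Of 18818 genes, 7739 were called, which is 41.1%. Of these, 4121 (21.9%) were higher and 3618 (19.2%) lower in knockout. The called difference was at least 2-fold higher for 1337 genes (7.1%) and at least 2-fold lower for 1282 genes (6.81%). The large differences leaned to one side: 188 genes were at least 4-fold higher and 385 at least 4-fold lower, and 20 genes were at least 8-fold higher against 90 at least 8-fold lower. All 3 knockout arrays lay on 1 side of all 4 wild type arrays for 9477 genes (50.4%). The median difference of all genes was 0.05, the median absolute difference 0.25 and the median standard error 0.12.

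**Figure D1:**
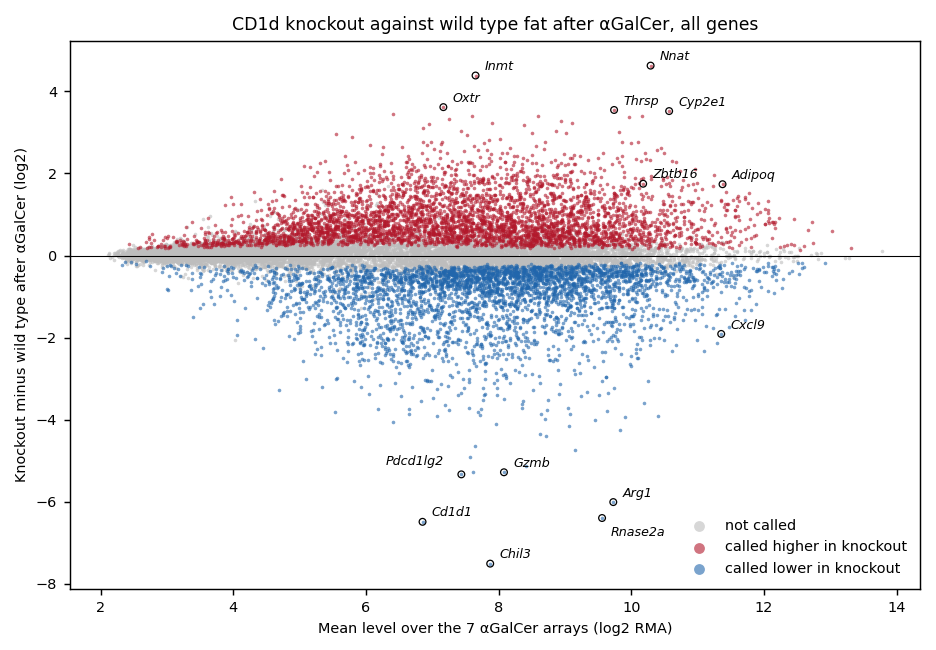
Each point is a gene, with its mean log2 level over the 7 αGalCer arrays on the horizontal axis and the knockout minus wild type difference (log2) on the vertical axis. Red and blue points are the 4121 genes called higher and the 3618 called lower in knockout, grey points were not called, and circled genes are named in the text; the lower side reaches further from 0 than the upper side.

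Cd1d1 (probe set 10499160, chromosome 3), the targeted gene, lay at 10.01, 9.08, 9.74 and 9.71 on the wild type arrays and at 3.56, 2.64 and 3.24 on the knockout arrays. The difference was -6.49 ± 0.24 (adjusted p = 4.37e-09), a 89.8-fold lower level, and the groups were far apart. Cd1d2, the second CD1d gene, lay at 4.62 to 5.05 in wild type and 4.62 to 5.01 in knockout, so its probe set did not separate the genotypes (-0.03 ± 0.12, adjusted p = 0.861). Among 13 measured genes of CD1d lipid presentation, 7 were lower (53.8%) and 3 higher (23.1%) in knockout, against 19.2% and 21.9% of all genes. Besides Cd1d1, the lower genes included Ctss, a lysosomal protease of antigen-presenting cells (-2.33), and Gla, the lysosomal α-galactosidase (-2.20). The lipid carriers Apoe (1.34) and Mttp (0.63) were higher.

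The wild type arrays held more transcript of T cell receptor and cytotoxic genes than the knockout arrays. Cd3e, a chain of the T cell receptor complex, lay at 9.40, 9.42, 9.30 and 8.92 in wild type and 6.44, 6.19 and 5.83 in knockout. Its difference was -3.10 ± 0.16 (adjusted p = 4.59e-08), with no overlap, as for 50.4% of all genes. All 20 measured genes of the receptor complex and its signalling were called lower in knockout, with a median of -1.71. They include Cd3g (-3.40), the kinase Zap70 (-2.40), the costimulator Cd28 (-1.99), and the coreceptors Cd8a (-1.75) and Cd4 (-1.38). These receptor genes are carried by conventional T cells too, so their levels do not separate NKT cells from other T cells. In bulk fat, fewer cells of a type and less RNA per cell cannot be told apart, here or for any gene below.

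Of 13 genes tied to NKT cell identity, 11 were lower in knockout. After vehicle 0 of them were called between the genotypes, with a median of 0.02. Slamf6, a receptor needed for NKT cell selection, lay at 8.75, 9.14, 8.75 and 8.79 in wild type and 5.00, 5.17 and 5.13 in knockout, a difference of -3.76 ± 0.11 (adjusted p = 5.35e-10). Il2rb, the β chain shared by the IL-2 and IL-15 receptors, was lower by a difference of -3.53. Klrb1c, the receptor NK1.1, differed by -2.38, the homing receptor Cxcr6 by -2.27 and the transcription factor Tbx21 by -2.19. Zbtb16, which encodes the NKT cell transcription factor PLZF, went the other way. It lay at 9.06, 9.08, 9.91 and 9.67 in wild type and 11.20, 11.15 and 11.18 in knockout (1.75 ± 0.19, adjusted p = 8.43e-06). Its mean after vehicle was 11.18 in wild type and 11.25 in knockout, so the wild type αGalCer group was the low one. The knockout levels of Zbtb16 come from mice that lack NKT cells, and which cells gave them was not tested. Il17rb, the IL-25 receptor chain of an NKT cell subset, was also higher in knockout (0.74).

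Transcripts of cytotoxic granules gave some of the largest differences. Gzmb, the protease granzyme B, lay at 10.67, 10.04, 10.23 and 10.42 in wild type and 5.24, 5.01 and 4.94 in knockout (-5.28 ± 0.14, 38.9-fold, adjusted p = 5.35e-10). Gzma, granzyme A, differed by -4.39 ± 0.18 and perforin (Prf1) by -3.89 ± 0.24. The groups did not overlap for any of these 3 genes, as for 50.4% of all genes. The rule that named Gzmb and Gzma asked for groups without overlap. Of 18 measured genes of cytotoxic granules and NK receptors, 16 were lower, among them Nkg7 (-3.43), the transcription factor Eomes (-3.02), Klrg1 (-2.94) and the NK cell receptor Ncr1 (-2.10). The remaining 2, Gzmm (0.10) and the general lysosomal protein Lamp1 (-0.06), were not called. The 5 NK and cytotoxic markers averaged 8.59 to 9.52 in wild type and 5.57 to 6.42 in knockout, and the 5 T cell markers 7.53 to 7.78 and 5.42 to 5.82. Granzymes are a family of similar genes, and how the probes split such copies is not given in the sources used here.

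Inhibitory receptors and their ligands followed. Pdcd1lg2, the ligand PD-L2 of the receptor PD-1, lay at 10.04, 9.79, 9.45 and 9.61 in wild type and 4.40, 4.13 and 4.65 in knockout (-5.33 ± 0.15, 40.3-fold, adjusted p = 5.35e-10). Cd274, the other PD-1 ligand, differed by -1.75 and Pdcd1, the receptor itself, by -0.99. Of 14 measured genes of this group, 12 were lower, including Tigit (-3.81), Havcr2 (-2.67) and Ctla4 (-1.65). Cd200, a ligand found on endothelium and stroma, was higher (1.67), while its receptor on myeloid cells, Cd200r1, was lower (-2.63). Of 12 measured genes of regulatory T cells and IL-33, 9 were lower, among them the cytokine Il10 (-1.36) and Il33 itself (-0.89), and Il2ra was not called (-0.28). Of 14 B cell genes, 3 were higher and 3 lower, 21.4% each way and so near the 21.9% and 19.2% of all genes, with a median of 0.14. The B cell receptor chains Cd79a (0.20) and Cd79b (0.18) were not called.

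**Figure D2:**
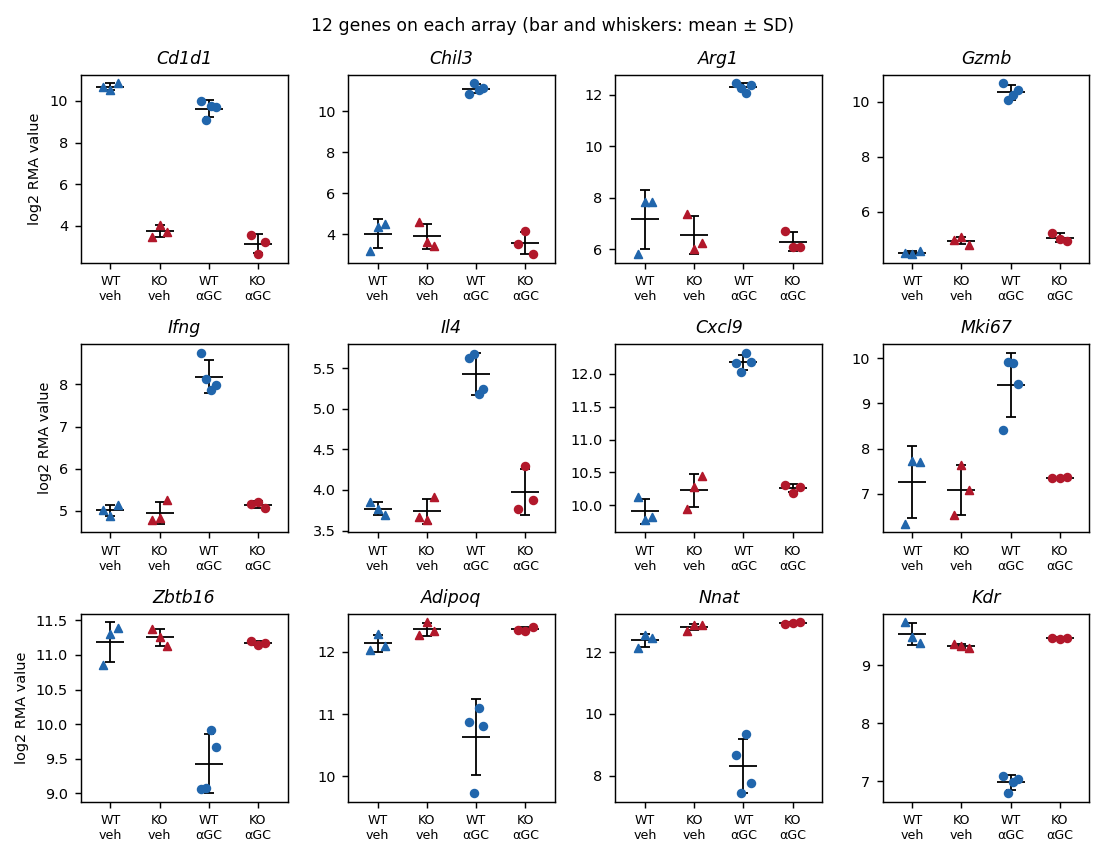
Points are the log2 RMA values of 12 genes on each of the 13 arrays, with wild type (WT) in blue and knockout (KO) in red, vehicle (veh) as triangles and αGalCer (αGC) as circles; bars and whiskers are the mean and SD of each group (n = 3, and n = 4 for wild type after αGalCer). The 4 wild type αGalCer arrays stand apart from the 3 knockout αGalCer arrays in every panel, and Cd1d1 is the gene for which the vehicle groups are also far apart.

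The cytokines that NKT cells are known for were among the genes lower in knockout. Ifng, interferon-gamma, lay at 8.75, 8.12, 7.87 and 7.99 in wild type and 5.16, 5.22 and 5.06 in knockout (-3.04 ± 0.19, adjusted p = 1.21e-07). Il4 had low values in both groups, 5.63, 5.68, 5.18 and 5.24 in wild type and 3.76, 4.29 and 3.87 in knockout (-1.46 ± 0.15, adjusted p = 5.35e-06). RMA compresses dim probe sets, so a fold that ends near the lowest values is understated. Il13, the cytokine most related to IL-4, lay at 5.41 to 6.62 and 5.22 to 5.42, where the groups touched. Its difference of -0.62 ± 0.22 was called at an adjusted p of 0.0388 and was not called in 9 of 18 alternative settings.

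Of 14 measured genes of IL-4, IL-13 and STAT6 signalling, 10 were lower and 1 higher in knockout, with a median of -0.69. Il4ra, the receptor chain shared by IL-4 and IL-13, lay at 11.44, 11.08, 10.32 and 11.32 in wild type and 9.02, 8.93 and 8.97 in knockout (-2.07 ± 0.22, adjusted p = 5.4e-06). Il13ra2, the decoy receptor of IL-13, differed by -2.04 and Socs1, an inhibitor of cytokine receptors, by -2.54. Stat6, the transcription factor that IL-4 activates, had nearly equal transcript levels, 10.04 to 10.21 in wild type and 9.94 to 10.14 in knockout, and was not called (-0.09 ± 0.07, adjusted p = 0.328). Its activity is set by phosphorylation, which the arrays do not measure. Kdm6b, a histone demethylase, was the higher member (0.58), and its call was lost in 7 of 18 alternatives.

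Genes of alternatively activated macrophages, the state linked to IL-4, had the lowest median of the 71 gene lists, -2.47, with 17 of 22 measured members lower and none higher. Chil3, a secreted chitinase-like protein (probe set 10501020), had the largest difference of all genes. It lay at 10.86, 11.37, 11.01 and 11.12 in wild type and 3.54, 4.14 and 3.06 in knockout (-7.51 ± 0.35, 182-fold, adjusted p = 2.57e-08). Arg1, arginase, lay at 12.46, 12.28, 12.09 and 12.38 in wild type and 6.71, 6.09 and 6.08 in knockout (-6.01 ± 0.44, 64.3-fold, adjusted p = 3.48e-07). For both genes the knockout values were near those of the vehicle groups, whose means were 3.90 to 4.02 for Chil3 and 6.55 to 7.17 for Arg1. Smaller differences were found for the mannose receptor Mrc1 (-1.43 ± 0.21), the lectin Clec10a (-1.33 ± 0.21) and the resistin-like protein Retnla (-0.55 ± 0.12). All were called and without overlap, which held for 50.4% of all genes. Retnla also had high vehicle group means, 11.05 and 11.44. The chemokines Ccl24 (-3.34), Ccl22 (-3.06) and Ccl17 (-2.78) also belong here. Chil3 and Chil4 (-3.27) are near-identical copies, so which of them gave a signal is uncertain.

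Genes of classically activated macrophages were lower in knockout as well, 17 of 20 with a median of -2.01. Nos2, the inducible nitric oxide synthase, lay at 9.64, 8.75, 7.96 and 8.76 in wild type and 6.62, 6.79 and 6.53 in knockout (-2.13 ± 0.28, adjusted p = 3.86e-05). Tnf lay at 8.82, 7.68, 7.30 and 8.52 against 6.02, 5.65 and 5.24 (-2.44 ± 0.33, adjusted p = 4.42e-05). Itgax, the integrin CD11c, differed by -2.91 and Il1b by -2.57. For Nos2 and Tnf the wild type arrays spread over more than 1 log2 unit, and the groups did not overlap, as for 50.4% of all genes. The subunits of IL-12 and IL-23 did not separate the groups: Il12b (-0.09), Il12a (0.03) and Il23a (0.20) were not called. Both macrophage programmes were thus measured higher in the wild type arrays.

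General macrophage genes differed less than these state genes. Adgre1, a surface protein used to mark macrophages, lay at 10.09, 10.86, 10.83 and 10.24 in wild type and 9.80, 9.44 and 9.17 in knockout (-1.04 ± 0.28, adjusted p = 0.00867), and the call was lost without the 3 arrays that held muscle transcripts (adjusted p = 0.0652). Cd68 (-1.30) and the growth factor receptor Csf1r (-0.73) were also lower. Of 16 measured genes of resident macrophages, 7 were lower (43.8%) and 3 higher (18.8%), against 19.2% and 21.9% of all genes, with a median of -0.24. The lower ones include Fcgr1 (-3.26) and Lyve1 (-1.49), the higher ones the lectin Cd209f (1.24) and the phosphatidylserine receptor Timd4 (0.52). The call of Cd209f was lost without the same 3 arrays (adjusted p = 0.0528), and the scavenger receptor Cd163 (-0.28) and Mertk (-0.02) were not called. The 5 macrophage markers averaged 10.44 to 10.80 in wild type and 9.12 to 9.67 in knockout. Of 19 markers of lipid-associated and fusing macrophages, 11 were lower (57.9%) and 4 higher (21.1%, near the 21.9% of all genes). The fusion proteins Ocstamp (-3.41) and Dcstamp (-2.52), the elastase Mmp12 (-3.79) and Trem2 (-1.82) were lower. Among the higher ones, the phosphatase Acp5 had the largest difference (1.84), and Lpl (0.92), Fabp4 (0.85) and Cd36 (0.77) are also abundant in adipocytes.

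Chemokines and myeloid receptors made up many of the largest differences. Ccl8 lay at 10.91 to 11.41 in wild type and 7.11, 6.40 and 5.78 in knockout (-4.75 ± 0.41, adjusted p = 1.2e-06). Ccl2, the monocyte attractant, lay at 12.03, 11.58, 10.97 and 11.76 against 7.86, 7.59 and 7.50 (-3.94 ± 0.20, adjusted p = 3.84e-08). Of 32 measured chemokines, 22 were lower and none was higher, while the stromal chemokine Cxcl12 (0.01) and the eosinophil attractant Ccl11 (-0.28) were not called. Of 20 chemokine receptors, 10 were lower, among them Ccr1 (-3.70), and 3 scavenging receptors, Ackr1 (0.77), Ackr2 (0.91) and Ackr3 (0.64), were higher. Fc receptors and paired myeloid receptors were lower in 23 of 24 cases, with a median of -1.91. Tarm1, an activating receptor of myeloid cells, lay at 10.93, 10.65, 10.01 and 10.84 in wild type and 5.39, 5.62 and 5.45 in knockout (-5.12 ± 0.18, adjusted p = 3.43e-09). Toll-like receptors and NF-kB genes were lower in 16 of 23 cases, but Tlr5 was higher (1.18).

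Other myeloid types gave less uniform pictures. Neutrophil markers averaged 6.30 to 8.35 on the wild type arrays and 5.11 to 5.17 on the knockout arrays, the widest spread of any marker group within wild type. Of 14 measured neutrophil genes, 7 were lower, led by Lcn2 (-3.90) and Mmp8 (-3.00). The lower ones also include the receptors Cxcr2 (-2.98) and Csf3r (-2.61) and the calgranulin S100a9 (-1.72). The 2 higher members were the granule genes Elane (0.57) and Camp (0.36). Of 12 monocyte genes, 7 were lower, with Plac8 at -3.39 and Ccr2 at -1.76, and Ace, which endothelium also expresses, was higher (1.82). Eosinophil genes were split. Rnase2a differed by -6.40 ± 0.47 (adjusted p = 3.32e-07). Its knockout mean after αGalCer, 5.90, was below both vehicle means, 7.29 in wild type and 8.48 in knockout. Siglecf (0.01 ± 0.11, adjusted p = 0.952), Epx (-0.11) and Ccr3 (0.20) were not called, and Il5ra (0.57) and the lipoxygenase Alox15 (1.46) were higher. Rnase2a belongs to a family of near-identical ribonucleases that macrophages also express, so which member was measured is uncertain. Of 12 mast cell genes, 4 (33.3%, against 21.9% of all genes) were higher, among them the transcription factor Gata2 (1.49) and the protease Cpa3 (1.03), and 1 was lower, the histamine-forming enzyme Hdc (-1.35), while 7 were not called. Dendritic cell genes were lower in 9 of 16 cases, including Xcr1 (-1.73) and Clec9a (-1.27), both of the cross-presenting subset, and 2 were higher, Zbtb46 (0.62), a factor of classical dendritic cells, and Fscn1 (0.56).

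Genes of interferon-gamma signalling, among them receptor chains and targets, were lower in knockout in 15 of 16 cases with a median of -1.97. Cxcl9, a chemokine that is a classical target of this cytokine, lay at 12.16, 12.03, 12.32 and 12.18 in wild type and 10.31, 10.19 and 10.28 in knockout (-1.91 ± 0.12, adjusted p = 1.26e-07). Cxcl10 lay at 10.37 to 11.12 against 6.85 to 6.93 (-3.85 ± 0.20). Fcgr4, an activating Fc receptor, differed by -4.34 ± 0.26 and the transactivator Ciita by -2.24. Ifngr1, a chain of the receptor itself, was the 1 higher member (0.43). Of 11 interferon-inducible GTPases, which attack the vacuoles of intracellular microbes, 10 were lower, among them Gbp8 (-3.71), Iigp1 (-3.07) and Irgm1 (-2.35 ± 0.19). Mx2 was not called (-0.10). Of 18 genes typical of the type I interferon response, 9 were lower, with a median of -0.33. Zbp1 (-2.78) and Oas3 (-2.30) were lower, while Ifit1 (0.09), Ifit3 (0.19) and Rsad2 (0.15), which type I interferon induces strongly, were not called. GTPases of the Gbp family are similar in sequence, and members may share signal.

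The promoters of 4 genes are printed, 1 each from the lists of interferon-gamma signalling, interferon-inducible GTPases, IL-4 signalling and alternatively activated macrophages. Each is a called member of its list whose window of 250 bases before to 50 after the start held a motif searched. Not every such member was open to the choice, so a printed gene need not have the largest difference among them. Irgm1 and Pdcd1lg2 did not have the largest differences of their lists. The 200 bases before the RefSeq start are shown, 5′ to 3′ on the gene's strand, in the build GRCm38.p6. Capitals mark matches to an interferon-response motif, read as GAAA, 2 bases of any kind and GAAA, or in Pdcd1lg2 to a STAT6-type motif, read as TTC, 4 bases of any kind and GAA. The windows are chr1:171018726-171018925 (plus strand) for Fcgr4, chr11:48871421-48871620 (minus strand) for Irgm1, chr16:10785537-10785736 (minus strand) for Socs1 and chr19:29410719-29410918 (plus strand) for Pdcd1lg2.
Fcgr4: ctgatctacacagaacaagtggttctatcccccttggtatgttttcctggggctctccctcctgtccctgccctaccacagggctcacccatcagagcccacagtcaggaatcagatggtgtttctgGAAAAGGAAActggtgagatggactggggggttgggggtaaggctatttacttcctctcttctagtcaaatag
Irgm1: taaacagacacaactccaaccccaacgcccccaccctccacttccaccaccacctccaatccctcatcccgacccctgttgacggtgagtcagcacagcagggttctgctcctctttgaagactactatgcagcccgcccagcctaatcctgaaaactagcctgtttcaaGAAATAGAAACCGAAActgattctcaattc
Socs1: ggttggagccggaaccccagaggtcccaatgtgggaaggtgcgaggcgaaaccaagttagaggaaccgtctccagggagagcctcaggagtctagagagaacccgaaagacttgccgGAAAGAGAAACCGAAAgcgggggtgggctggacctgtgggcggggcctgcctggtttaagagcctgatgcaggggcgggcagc
Pdcd1lg2: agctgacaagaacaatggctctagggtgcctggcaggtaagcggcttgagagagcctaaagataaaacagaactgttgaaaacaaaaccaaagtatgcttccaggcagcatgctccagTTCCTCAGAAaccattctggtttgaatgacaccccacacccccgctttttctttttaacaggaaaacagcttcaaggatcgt
The match in Fcgr4 begins 73 bases before the start and that in Pdcd1lg2 82 bases before it. Irgm1 and Socs1 each hold an overlapping pair, which begins 30 and 24 bases before the start in Irgm1 and 83 and 77 bases before it in Socs1. A match is a description of letters, not a site or a cause.

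Both motifs were counted on both strands in the 300-base windows of all genes with a RefSeq promoter, of which 14749 of 18818 had one. The interferon-response motif stood in 3.34% of all windows, in 6.94% of those of genes at least 2-fold lower in knockout and in 1.99% of those at least 2-fold higher. The STAT6-type motif stood in 6.25% of all, 8.31% of the lower and 5.27% of the higher genes. At this fold both shares were above the share of all genes on the lower side and below it on the higher side. Among genes at least 4-fold lower the shares were 8.91% and 10.2% in the same order. Among those at least 4-fold higher they were 2.92% and 8.03%, so the STAT6-type motif was above the share of all genes on both sides. Both motifs were also counted in 5 lists. The interferon-response motif stood in 5 of 5 interferon-inducible GTPases with a promoter sequence and 0 of 14 genes of alternatively activated macrophages. It stood in 3 of 14 genes of interferon-gamma signalling, 4 of 12 of MHC class I and 1 of 13 of IL-4, IL-13 and STAT6 signalling. The STAT6-type motif stood in 0 of 5, 4 of 14, 2 of 14, 1 of 12 and 0 of 13 in the same order. The IL-4 list thus held no STAT6-type match. Windows can hold both motifs, and the shares carry no test.

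Antigen presentation differed on both MHC branches. Psmb8, a subunit of the immunoproteasome that cuts peptides for MHC class I, lay at 10.12, 9.85, 9.96 and 9.96 in wild type and 7.55, 7.34 and 7.38 in knockout (-2.55 ± 0.17, adjusted p = 1.87e-07). Of 15 measured genes of MHC class I and the immunoproteasome, 14 were lower, with the peptide transporter Tap1 at -2.09, while the light chain B2m was not called (0.17). The subunits of the constitutive proteasome were lower in 19 of 23 cases but by less, with a median of -0.40 against -1.08 for the MHC class I group. MHC class II genes were lower in 11 of 12 cases, with the invariant chain Cd74 at -0.61, H2-Ab1 at -0.79 and the peptide editor H2-DMa at -2.05. Sequence is shared between H2 genes, so single members are less certain than the group. Lysosomal genes were lower in 16 of 21 cases, among them the proton pump subunit Atp6v0d2 (-2.87) and cathepsin Ctse (-1.98). Ctse lay at 6.995, 9.69, 8.23 and 6.91 in wild type and 5.82 to 6.14 in knockout, so 2 wild type arrays were far above the others, and its call was lost without the arrays with muscle transcripts (adjusted p = 0.059). Complement genes were lower in 9 of 16 (56.2%), including C1qa (-1.42), C1qb (-0.90) and C1qc (-1.17). They were higher in 3 (18.8%, near the 21.9% of all genes), among them C2 (0.70).

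Every measured gene of the cell division lists was lower in knockout, 21 of 21 for DNA replication (median -2.10) and 22 of 22 for mitosis (median -2.23). Mki67, a protein of dividing cells, lay at 8.40, 9.92, 9.89 and 9.43 in wild type and 7.34, 7.34 and 7.36 in knockout (-2.07 ± 0.40, adjusted p = 0.000966). Bub1, a kinase of the mitotic checkpoint, lay at 7.44, 9.16, 8.82 and 8.43 against 5.16, 5.35 and 5.51 (-3.12 ± 0.37, adjusted p = 1.49e-05). Wild type replicate 1 was the lowest of its group for both genes and still above every knockout array. Rrm2, which makes deoxynucleotides, differed by -2.87 ± 0.15. The arrays do not show which cell types divided.

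Lists of glycolysis, stress, amino acid and acute phase genes held members of both directions. Of 22 genes of glycolysis and hypoxia, 12 were lower, including Hk3, the hexokinase of leukocytes (9.16 to 9.54 in wild type, 5.51 to 5.73 in knockout, -3.74 ± 0.16), the lactate transporter Slc16a3 (-2.63) and Slc2a1 (-1.96). Another 5 were higher (22.7%, near the 21.9% of all genes), with Pfkfb3 at 1.86, Bnip3 at 1.71 and Vegfa at 1.48. Gapdh (-0.06), Aldoa (-0.04) and Ldha (-0.01) were not called. Genes of the unfolded protein response were lower in 12 of 20 cases, led by Sdf2l1 (-2.58), and Herpud1 was higher (0.61). Amino acid transport and arginine genes were lower in 9 of 20 cases, among them the arginine transporter Slc7a2 (-3.73) and the cystine transporter Slc7a11 (-3.21), and higher in 3, with the endothelial synthase Nos3 at 1.82. Acute phase genes were split, with Timp1 (-4.25), Lcn2 (-3.90) and Ptx3 (-3.75) lower and Lbp (1.60) and Orm1 (1.16) higher. Lcn2 lay at 11.74 to 12.48 in wild type and 7.89 to 8.52 in knockout, and both vehicle group means, 10.92 and 10.42, lay between them. Markers of ciliated and ductal epithelium averaged 4.69 to 4.90 and 4.90 to 5.03 on these 2 groups of arrays but up to 7.04 on the vehicle arrays, and their part in the Lcn2 values was not tested.

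Adipocyte genes were higher in knockout. Adipoq, the hormone adiponectin, lay at 10.88, 9.73, 11.10 and 10.81 in wild type and 12.35, 12.34 and 12.41 in knockout (1.74 ± 0.24, 3.33-fold, adjusted p = 5.68e-05). Lep, leptin, lay at 10.35, 9.09, 10.14 and 9.85 against 12.01, 11.93 and 11.81 (2.06 ± 0.22, adjusted p = 7.74e-06). Wild type replicate 2 was the lowest array for both genes, and the groups did not overlap, as for 50.4% of all genes. Of 12 measured adipokine genes, 9 were higher, with the retinol carrier Rbp4 at 2.27, and Nampt was lower (-0.42). Pparg, the master regulator of fat cells, lay at 10.43 to 10.87 in wild type and 11.86 to 11.91 in knockout (1.22 ± 0.10, adjusted p = 1.1e-06). Of 18 measured adipogenic transcription factors, 14 were higher, including Klf15 (2.08), Srebf1 (1.48) and Cebpa (1.45), and Cebpb, which inflammation also induces, was lower (-0.97).

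The pathways that store and release fat were higher along their length. Fasn, fatty acid synthase, lay at 11.23, 9.998, 11.34 and 11.41 in wild type and 12.32, 12.38 and 12.46 in knockout (1.39 ± 0.26, adjusted p = 0.000724). Of 17 genes of fatty acid synthesis, 14 were higher and none lower, led by the lipogenic regulator Thrsp (3.55 ± 0.43), Pnpla3 (2.44) and the carboxylase Acacb (2.21). Of 15 genes of triglyceride synthesis, 13 were higher and Lpin2 was lower (-1.21). Pck1, which supplies glycerol for triglycerides, lay at 8.06, 8.19, 9.54 and 8.26 against 11.84, 11.82 and 12.03 (3.38 ± 0.29, adjusted p = 9.82e-07). Of 16 genes of lipolysis and the lipid droplet, 13 were higher. Among them the lipase Mgll and the lipolysis regulator G0s2 were each at 1.83, and the coat protein Plin1 at 1.01. Plin2, the coat protein also found in foamy macrophages, was lower (-0.85). The 6 adipocyte markers, 9.73 to 10.67 in wild type and 11.97 to 11.98 in knockout, moved with these differences, and their part in them was not tested.

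Mitochondrial pathways differed among themselves. Fatty acid oxidation was higher in 20 of 23 genes (median 0.82) and breakdown of branched-chain amino acids in 17 of 20 (median 1.14), with Aldh6a1 at 2.23 and Hibch at 1.98. In each, 1 gene was lower, the transporter Cpt1a (-0.47) and the cytosolic aminotransferase Bcat1 (-1.22). The citrate cycle was higher in 14 of 24 genes with a median of 0.32, led by pyruvate carboxylase Pcx (1.70), and Sdhd was lower (-0.35), a call lost in 3 of 18 alternatives. Oxidative phosphorylation was higher in 6 of 23 genes (26.1%, against 21.9% of all genes). In that list 1 gene was lower and the median was 0.07, close to the 0.05 of all genes. Of 17 thermogenic genes, 9 were higher, including the regulator Ppargc1a (1.71) and Cox8b (2.39), and 2 were lower, the beige fat marker Tmem26 (-3.02), which had the largest difference of the list, and Ppargc1b (-0.58). Ucp1 was not called (-0.36). Genes of aldehyde and xenobiotic metabolism were higher in 20 of 24 cases and lower in 2, Cyp1b1 (-0.72) and Aldh9a1 (-0.33). Among the higher ones the methyltransferase Inmt lay at 5.32, 5.68, 6.61 and 5.49 in wild type and 10.27, 10.08 and 10.12 in knockout (4.38 ± 0.33, 20.9-fold, adjusted p = 3.82e-07), and Cyp2e1 differed by 3.52 ± 0.37. Cholesterol genes were split, 6 higher and 8 lower of 19, and Ch25h, an interferon-induced hydroxylase, was the lowest at -4.91.

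Insulin signalling and glucose transport genes were higher in 15 of 20 cases (75%, against 21.9% of all genes). They were lower in 4 (20%, near the 19.2% of all genes). Slc2a4, the insulin-regulated glucose transporter GLUT4, lay at 7.43, 6.69, 8.05 and 7.53 in wild type and 9.94, 10.15 and 10.17 in knockout (2.66 ± 0.23, 6.31-fold, adjusted p = 1.28e-06). The insulin receptor Insr (1.07) and its substrates Irs1 (1.75) and Irs2 (0.81) were higher, and the phosphatase Ptpn1, which acts against the receptor, was lower (-1.46). The basal glucose transporter Slc2a1 (-1.96) went the opposite way to Slc2a4. Clock genes divided by arm. Per3 (2.43), Hlf (2.34), Per2 (1.78) and Nr1d2 (1.37) were higher, while Arntl (-1.44), which drives that arm, and the repressor Nfil3 (-1.85) were lower. In all, 10 of 16 were higher (62.5%) and 3 lower (18.8%, near the 19.2% of all genes). The labels give no time of day at which the tissue was taken, so time of day and genotype cannot be told apart. Genes of the glucocorticoid response were higher in 10 of 19 cases (52.6%), among them Tsc22d3 (1.42). They were lower in 4 (21.1%, near the 19.2% of all genes), among them Lcn2 (-3.90) and the cell cycle inhibitor Cdkn1a (-2.01), while Fkbp5 was not called (0.40).

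Imprinted genes were higher in 12 of 14 cases and none was lower. Nnat, neuronatin, had the largest difference on this side. It lay at 8.67, 7.43, 9.36 and 7.77 in wild type and 12.91, 12.93 and 12.97 in knockout (4.63 ± 0.34, 24.7-fold, adjusted p = 3.48e-07). Peg3 (3.40 ± 0.20) and Mest (3.39 ± 0.22) followed. The rule that named these 3 genes asked for groups without overlap, which held for 50.4% of all genes. Mest is known to vary with fat mass between mice. Oxtr, the oxytocin receptor, was also among the highest at 3.61 ± 0.22 (5.21 to 6.11 in wild type, 9.10 to 9.30 in knockout). Further genes with large differences were the cholinesterase Bche (3.39), the adhesion protein Negr1 (3.33), the transporter Slc6a13 (3.28), the butyrophilin-like Btnl9 (3.23), the matrix protein Ltbp4 (3.22) and the pantetheinase Vnn1 (3.20).

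Endothelial genes formed the list with the highest median, 1.55, with 20 of 22 higher and none lower. Kdr, the main VEGF receptor, lay at 7.09, 6.79, 6.99 and 7.03 in wild type and 9.48, 9.46 and 9.48 in knockout (2.50 ± 0.10, 5.65-fold, adjusted p = 5.99e-09). Pecam1 differed by less, 9.56 to 9.98 against 10.41 to 10.47 (0.63 ± 0.09, adjusted p = 8.54e-05). Leukocytes also express Pecam1. The apelin receptor Aplnr (2.37), the phosphatase Ptprb (2.31), the lipoprotein anchor Gpihbp1 (2.19) and Tek (1.91) were higher, and Flt1 (0.35) and Plvap (-0.28) were not called. Among ligands, Vegfb (2.01), Vegfa (1.48) and Vegfc (1.29) were higher and the placental factor Pgf (-0.22) was not called. Pericyte and smooth muscle genes were higher in 11 of 12 cases, led by Rgs5 (7.59 to 8.15 in wild type, 10.33 to 10.51 in knockout, 2.48 ± 0.18). Lymphatic genes were split, with Prox1 (1.10) higher and Lyve1 and Pdpn (-0.85) lower, and macrophages carry the latter pair too.

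The stroma was higher in knockout as well, in part. Collagens were higher in 18 of 20 cases with a median of 0.74. Col1a1, the chief fibrillar collagen, lay at 10.40, 10.25, 10.40 and 10.29 in wild type and 11.04, 10.91 and 10.76 in knockout (0.57 ± 0.13, adjusted p = 0.0037). Small proteoglycans and matrix glycoproteins were higher in 17 of 22 cases, led by Fmod (3.03 ± 0.31), Aspn (2.78) and Podn (2.49), while Tnc (-1.38), Thbs1 (-1.28) and Vcan (-1.16), which appear in wounds, were lower. Matrix proteases were split 7 to 7 of 20. The collagenase Mmp13 lay at 10.24, 10.16, 9.14 and 9.94 in wild type and 4.85, 4.59 and 4.34 in knockout (-5.28 ± 0.22, adjusted p = 9.85e-09), whereas Mmp2 (1.37) and the inhibitors Timp3 (1.24) and Timp4 (3.01) were higher and the inhibitor Timp1 lower (-4.25). Progenitor and fibroblast genes were higher in 12 of 19 cases, with Pi16 at 1.38 and Dpp4 at 1.41, and 2 were lower, the adhesion protein Icam1 (-1.75), the largest difference of the list, and Thy1 (-0.60). In the same direction as most of that list, 11 of 14 genes of the IGF1 axis were higher, led by Igfbp5 (2.38). Mesothelial genes were higher in 9 of 12 cases, with Upk3b at 1.69. Markers of endothelium averaged 8.25 to 8.72 in wild type and 10.11 to 10.12 in knockout, and markers of fibroblasts 8.85 to 9.34 and 10.05 to 10.19. They moved with these vascular and stromal lists, and their part was not tested.

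**Figure D3:**
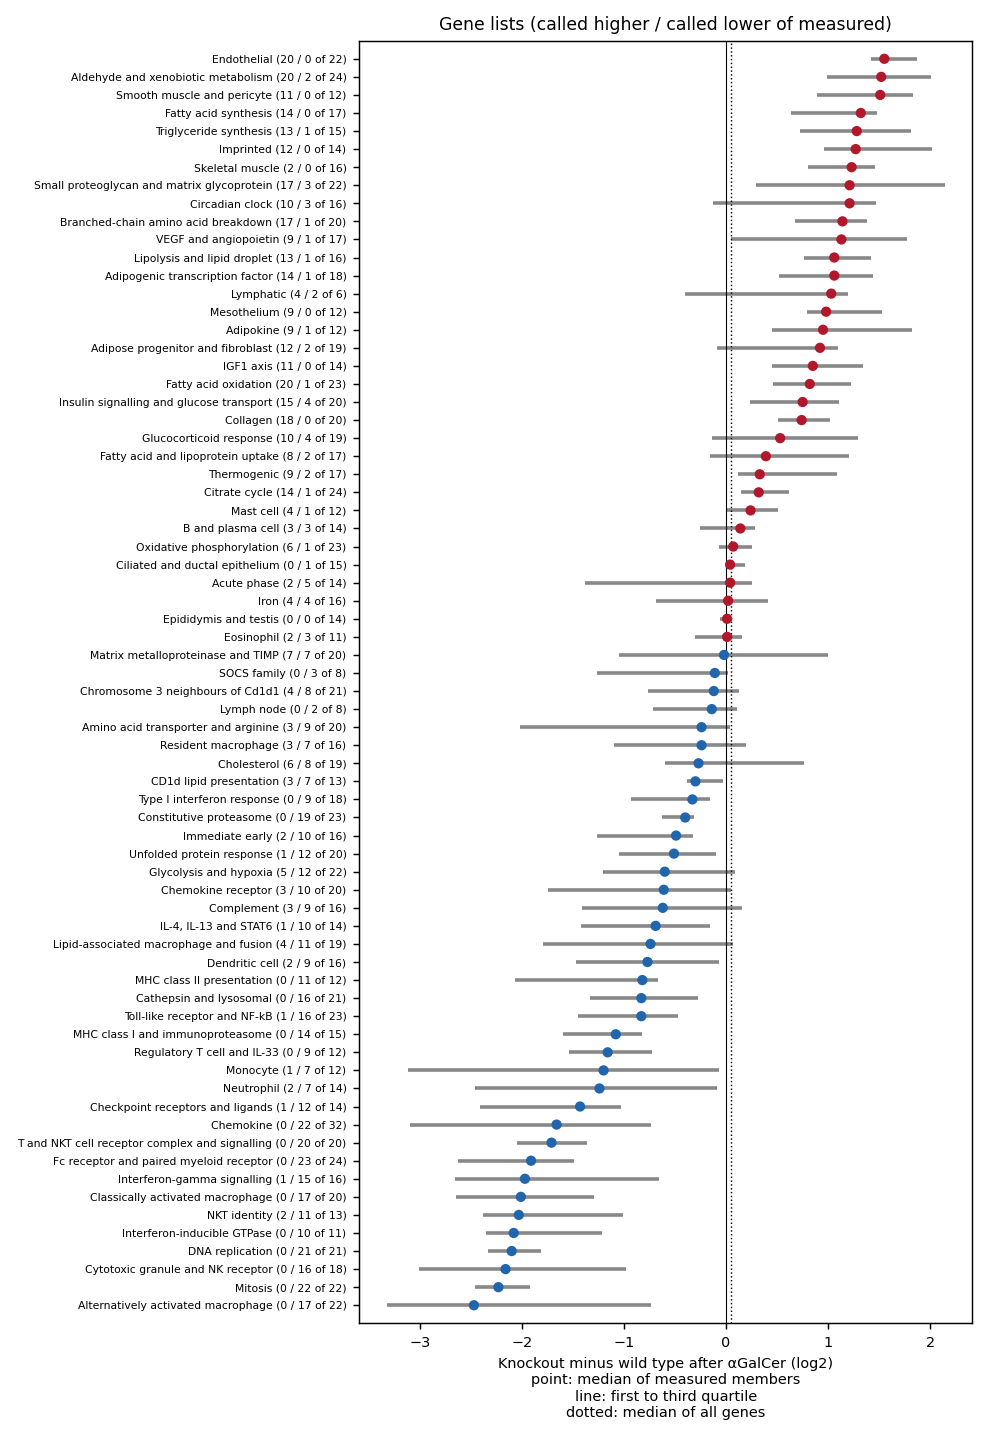
Each row is a gene list, the point its median knockout minus wild type difference after αGalCer (log2), the line its interquartile range, and the numbers beside the name count members called higher and lower of those measured. Lists of macrophage activation, cell division, cytotoxic cells and interferon lie at the low end, and lists of endothelium, lipid metabolism, pericytes and matrix at the high end, with the dotted line at the median of all genes, 0.05.

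Lists that dissection could add gave few calls. None of 14 genes of epididymis and testis was called, although Lcn8 (0.25 ± 0.10, adjusted p = 0.0526) was called in 5 of 17 alternatives, among them without knockout replicate 3. Of 15 of ciliated and ductal epithelium, the 1 gene called was Cdh1 (-2.66), a cadherin that some activated macrophages and dendritic cells also express. Of 8 lymph node genes, Ccl19 (-1.16) and Ltb were lower, and the call of Ccl19 was lost without knockout replicate 3 (-0.805, adjusted p = 0.0784). Skeletal muscle genes had a median of 1.23, but 2 of 16 were called, Actn3 (2.05 ± 0.69, adjusted p = 0.0293) and Myl1 (1.81 ± 0.38, adjusted p = 0.00171). Actn3 lay at 6.79, 6.26 and 9.26 in knockout, so replicate 3 was the high array, and its call was lost without that array. Of 3 measured red blood cell genes, Alas2 was higher (1.38).

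**Figure D4:**
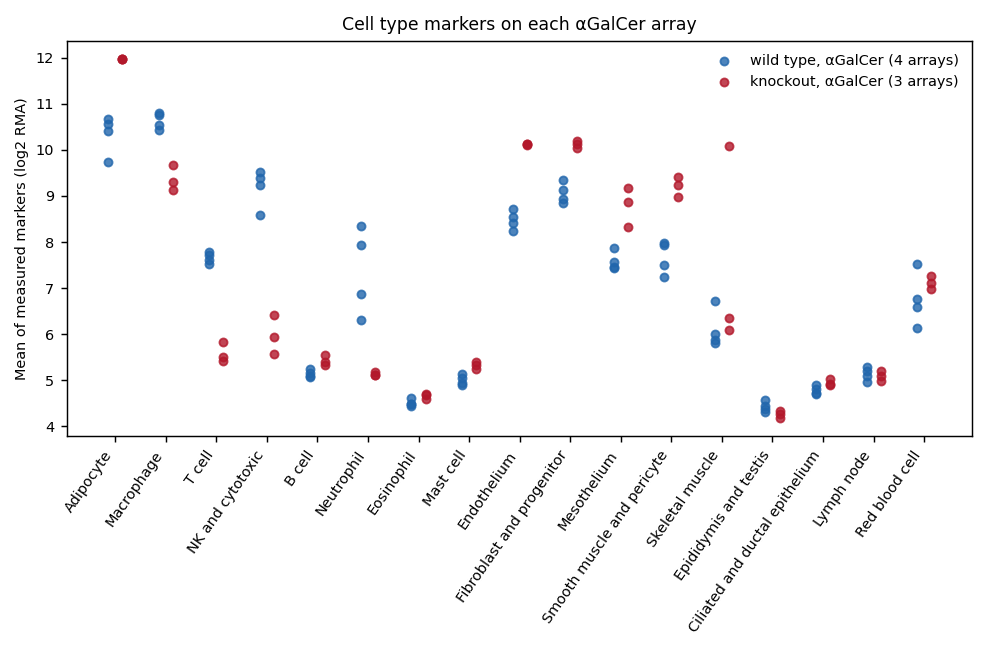
Points are the mean log2 level of the measured markers of 17 cell types on each αGalCer array, wild type in blue and knockout in red. T cell, NK and cytotoxic, macrophage and neutrophil markers lie higher in wild type, adipocyte, endothelial, fibroblast, mesothelial and smooth muscle markers lie higher in knockout, and 1 knockout array stands out for skeletal muscle at 10.09.

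Few genes were called between the genotypes without αGalCer. After vehicle 21 of 18818 genes were called (0.112%), 17 higher and 4 lower in knockout, while 1258 had an unadjusted p under 0.05 in limma, and the median absolute difference was 0.10. The difference of the genotype effect between the injections was called for 5309 genes (28.2%). It had the sign of the αGalCer difference for 5184 of the 7739 genes called after αGalCer (67%) and for 2452 of the 2619 that were at least 2-fold different (93.6%). Chil3 (-7.38), Gzmb (-5.72), Ifng (-2.98) and Il4 (-1.43) differed between the injections in this test, as did Nnat (4.19), Kdr (2.71) and Adipoq (1.505). Cd1d1 did not pass it (adjusted p = 0.39), and neither did Col1a1 (adjusted p = 0.94), whose vehicle means were 10.31 in wild type and 10.91 in knockout, or Il13 (adjusted p = 0.0625). The vehicle comparison rests on arrays of which knockout replicates 1 and 2 held muscle transcripts (markers up to 10.05, against 6.02 to 6.04 in wild type). Without them a single knockout vehicle array remains, so the part of muscle transcripts in the calls after vehicle was not tested. The count after vehicle was 169 with array weights, 35 without wild type αGalCer replicate 2 and 11 without wild type vehicle replicate 3.

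Of the 21 genes called after vehicle, 17 were also called after αGalCer, which is 81% of the first list and 0.22% of the second. The comparisons share no array but share 1 estimate of the spread. For 16 genes the direction was the same, and Cd1d1 was the only one of these that was lower in knockout. Serpina3b, a protease inhibitor, was the largest on the higher side. It lay at 4.97, 4.98, 4.97 and 4.82 in wild type and 8.26, 8.57 and 8.32 in knockout after αGalCer (3.45 ± 0.24), and its vehicle difference was 2.15. Dclk2, a kinase gene on chromosome 3 as Cd1d1 is, lay at 4.76 to 4.90 against 6.49 to 6.53 (1.68 ± 0.11), with 1.43 after vehicle. The RIKEN transcript 9030619P08Rik on chromosome 15 gave 1.84 and 1.56, and Gatb on chromosome 3 gave 0.65 and 0.76. For Dclk2, Gatb and 9030619P08Rik the difference between the injections was not called (adjusted p = 0.312, 0.635 and 0.349). Acp5, the tartrate-resistant phosphatase of osteoclasts and macrophages, lay at 9.52 to 9.97 in wild type and 11.63 to 11.69 in knockout (1.84 ± 0.11), with 0.77 after vehicle, and its difference between the injections was called (adjusted p = 0.000204). The other genes of this kind were Cadps, Prokr1, Kcne1l, Srpx, Phyhd1, Sctr, Pla2g2d, Pde11a, C2 and the miRNA gene Mir365-2.

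**Figure D5:**
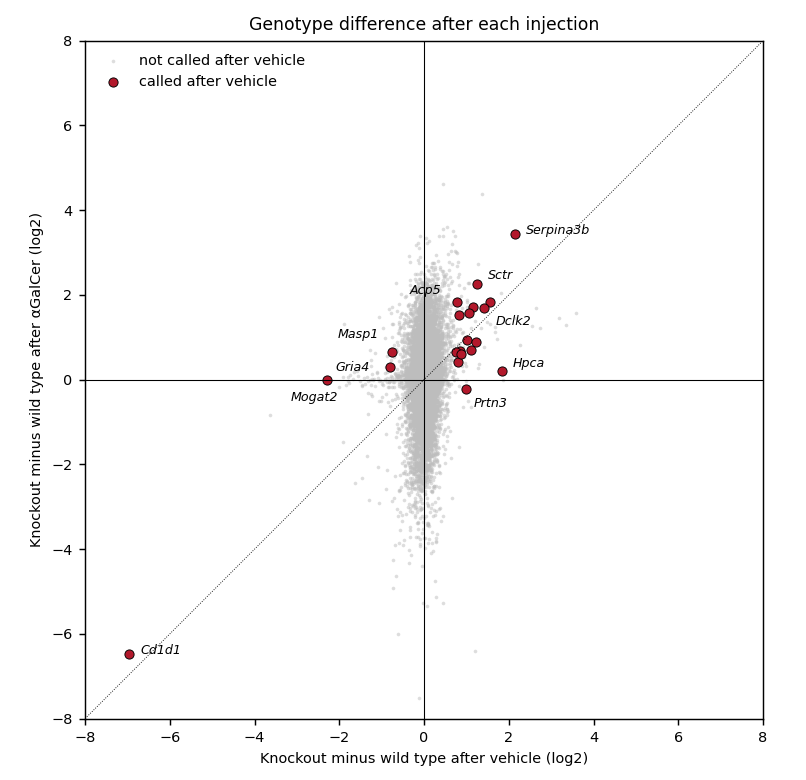
Each point is a gene, with the knockout minus wild type difference (log2) after vehicle on the horizontal axis and after αGalCer on the vertical axis, and the dotted line marks equal differences. The 21 genes called after vehicle are in red, and most other genes spread along the vertical axis, while Cd1d1 and Dclk2 lie near the line of equal differences.

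A few genes differed in opposite ways or only after vehicle, named after their values were seen except Masp1. Masp1, a protease of the lectin pathway of complement, was lower in knockout after vehicle (-0.76) and higher after αGalCer (0.64 ± 0.10, adjusted p = 0.000188). Mogat2, an acyltransferase of fat absorption, differed by -2.30 after vehicle, with means of 8.63 in wild type and 6.33 in knockout. After αGalCer it lay at 6.91, 5.93, 6.72 and 6.71 against 6.72, 6.65 and 6.35, where the groups overlapped (0.00 ± 0.22, adjusted p = 0.997). Hpca (1.85 after vehicle and 0.21 after αGalCer), Gria4 (-0.81 and 0.30) and Prtn3 (0.9995 and -0.23) were likewise not called after αGalCer, and for each of these 5 genes the difference between the injections was called. A list of 21 measured genes near Cd1d1 on chromosome 3 had 8 members lower and 4 higher after αGalCer. Of all genes, 19.2% were lower and 21.9% higher. None of the list was called after vehicle. The list does not hold every gene near Cd1d1. It leaves out Dclk2 and Gatb, also near it on chromosome 3, which were called after both injections. Its vehicle count therefore does not cover them. The lower members of the list include Sh2d2a, an adaptor of T cells (-3.46), and Cd5l, a macrophage protein (-1.80). Fcrls, a macrophage receptor, was higher (2.72). The strain's name places the origin of the allele in another inbred background. The part of that background in differences near Cd1d1, those of Dclk2 and Gatb included, was not tested.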

How the data were processed

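The authors deposited log2 values, 1 column per array and 1 row per probe set, made with RMA per the submitters' processing notes. Its version, the chip description file and the build: not given in the sources used here. Each array used 100 ng of RNA with an integrity number above 8.0 and no removal of ribosomal RNA, per the labels' protocols. RMA compresses dim probe sets, no detection calls were used, and the number of arrays limits precision. Array medians ran from 5.68 to 5.83.

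Of 35556 probe sets, 21218 had exactly 1 symbol in the annotation of the platform, updated where possible through RefSeq (GRCm38.p6). The probe set with the highest mean stood for each of 18818 genes. Genes of the lists without such a probe set were not analysed here.

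All 13 arrays entered 1 limma model (version 3.58.1 in R 4.3.3), which had 1 coefficient for each group, 9 residual degrees of freedom and eBayes with an intensity trend. Tests were two-sided, and adjusted p-values are Benjamini-Hochberg over all genes. The model was tested on simulated data. The groups share replicate numbers. Deviations of 18 pairs of arrays with the same number in different groups correlated at -0.203 to 0.484 (median 0.022). The 45 other pairs between groups gave -0.571 to 0.464 (median 0.018), so the numbers were not used as pairs. Whether some of these arrays share a batch was not tested.

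The comparison, the 71 gene lists (which share members) and the tests were chosen with earlier results of these data known, and lists carry no test of their own. Genes named in the text are the 15 largest called differences without overlap in each direction (RIKEN, Gm, LOC, predicted and pseudogene names skipped), up to 3 called members per list and the largest against its median, 35 measured core genes, the 10 with the smallest p called alike after both injections, and those called in opposite directions. Other named genes were picked from the lists once their values were known. Alternatives covered the variance model, arrays in the model, centring, quantile normalisation, array weights, dim genes, several probe sets per gene, the replicate block, a minimum fold of 1.5 (limma's treat) and each array of the comparison left out. Leaving out the arrays with muscle transcripts, and each vehicle array in turn, was added after the data were seen. Promoters were searched for 2 motifs, and 1 further motif is not reported here.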

Additional observations from a re-analysis of the deposited data

Results flagged for a closer look

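On 3 of the 35 core genes tested, 1 wild type αGalCer array lay far from the other 3 of its group, where chance flags about 1 in 20. Mrc1 was lowest on replicate 1 at 11.09, with the others at 11.51 to 11.57. Pck1 was highest on replicate 3 at 9.54, with the others at 8.06 to 8.26. Fasn was lowest on replicate 2 at 9.998, with the others at 11.23 to 11.41. None of these arrays reached the knockout values.

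The genotype difference itself differed between the injections for 5309 genes and for 28 of the core genes, tested in limma as the difference after αGalCer minus the difference after vehicle on the log2 scale. Among cytokine, lymphocyte and cytotoxic genes it was -1.43 for Il4, -2.98 for Ifng, -3.38 for Cd3e, -5.72 for Gzmb, -3.78 for Prf1 and 1.68 for Zbtb16. Among macrophage genes it was -7.38 for Chil3, -5.39 for Arg1, -1.51 for Mrc1, -0.94 for Retnla, -1.87 for Clec10a, -5.41 for Pdcd1lg2, -2.21 for Il4ra and -2.98 for Itgax. It was -2.18 for Nos2, -2.38 for Tnf, -3.84 for Ccl2, -2.22 for Cxcl9 and -1.90 for the division gene Mki67. Among adipocyte genes it was 1.505 for Adipoq, 1.86 for Lep, 1.07 for Pparg, 2.50 for Slc2a4, 3.47 for Pck1, 1.65 for Fasn and 4.19 for Nnat. Among endothelial genes it was 2.71 for Kdr and 0.72 for Pecam1.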

How the results depend on the processing

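Of 246 named genes, 242 were called and 203 of these were called in all 18 alternatives, while 39 were lost in at least 1, of which 30 only under a minimum fold of 1.5. Il13 was lost in 9, Cd55 in 8, Kdm6b in 7 and Actn3 in 6. Of the uncalled genes, Lcn8 gained a call in 5 of 17, and Cd1d2 changed sign with the replicate block (0.040), without wild type replicate 4 (0.040) and without knockout replicate 1 (0.057). Siglecf changed sign with median centring (-0.015), renewed quantile normalisation (-0.018), array weights (-0.005) and without wild type replicate 2 (-0.034), wild type replicate 3 (-0.005) or knockout replicate 2 (-0.010), within a range of -0.034 to 0.064 over the arrays left out in turn.

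Leaving out 1 array at a time gave 3504 to 3992 genes higher, 3144 to 3588 lower, 1250 to 1390 at least 2-fold higher, 1221 to 1338 at least 2-fold lower, 4531 to 5597 differing between the injections and 11 to 35 after vehicle (35 without wild type αGalCer replicate 2, 11 without wild type vehicle replicate 3). The vehicle arrays were left out for the last pair of counts, the αGalCer arrays for all. A minimum fold of 1.5 gave 1330 higher, 1252 lower, 1622 between the injections and 4 after vehicle. Array weights gave 169 after vehicle. Leaving out the arrays with muscle transcripts left a single knockout vehicle array, so no count after vehicle is given for it. The replicate block gave 4023 higher, 3614 lower, 5461 between the injections and 17 after vehicle, and in it wild type αGalCer replicate 4 adds nothing, as its number occurs once. Median centring gave 3671 higher and 3690 lower.

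The medians of 8 of 71 lists changed sign in at least 1 alternative: eosinophil (-0.14 to 0.06), acute phase (-0.09 to 0.08), iron (-0.01 to 0.05), matrix metalloproteinase (-0.08 to 0.20), skeletal muscle (-0.10 to 1.87), epididymis (-0.42 to 0.04), ciliated epithelium (-0.04 to 0.12) and red blood cell (-0.25 to 0.37). Changes of sign were not tested for cause. Arrays are few, signal near background is compressed, and the shares of promoters of genes lower in knockout moved with the fold chosen (at least 4-fold: 10.2% for the STAT6-type and 8.91% for the interferon-response motif).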

Other observations

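Iron, cytokine inhibitor and early response genes were not described above. Of 16 iron genes, 4 were higher and 4 lower, 25% each way against 21.9% and 19.2% of all genes, with a median of 0.02, and the lower ones include the haem oxygenase Hmox1 (-2.29) and the transferrin receptor Tfrc (-1.74). Of 8 measured members of the SOCS family, 3 were lower and none was higher, with Socs1 at -2.54. Of 16 immediate early genes, 10 were lower and 2 higher, with a median of -0.49. Of 17 genes of fatty acid and lipoprotein uptake, 8 were higher and 2 lower.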
